A study of Mus musculus with 4 samples.

Results

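Ribosomal protein genes encode the protein subunits of the cytosolic ribosome, and they were the subject of a comparison between cells sorted from mouse fetal liver and cells sorted from adult mouse bone marrow. They were chosen by gene symbol alone (Rpl and Rps names, with Rpsa and the Rplp stalk genes), pseudogenes and differently named paralogs left out. Of 33465 gene labels in the deposited table, 75 met this rule, 30 of them genes of the small subunit and 45 genes of the large subunit. The fetal liver group had 2 libraries and the bone marrow group had 2 libraries, all from C57BL/6 mice without any stated allele or treatment. Cells were primary and FACS-sorted, and cDNA was made with a SMARTer low-input kit. The labels give neither the fetal stage, the adult age nor the sort markers. Nor do they state that the 2 libraries of each group stem from different mice, and the p-values therefore reflect variation among these libraries that could be technical. The series concerns a stem cell niche around portal vessels of the fetal liver.

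A ribosome is built in the nucleolus from ribosomal RNA, transcribed mainly by RNA polymerase I, and from ribosomal proteins imported from the cytoplasm. Each protein is needed in about the same amount, and the messenger RNAs of nearly all of them start with a run of pyrimidines, the 5′ terminal oligopyrimidine motif, through which mTOR signalling and the protein Larp1 control their translation. In humans, loss of 1 copy of any of several of these genes causes Diamond-Blackfan anaemia, a failure of red cell production.

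The first transcribed bases of several members are shown because this motif is the sequence feature that the family is known for, and the genes shown range from low to high ratios, as described below. Each line gives 40 bases before and 20 bases from the RefSeq start (GRCm38.p6, gene strand), with the unbroken run of C and T that holds the first transcribed base in capitals. Rpl7a lies at chr2:26910767-26910826 on the plus strand, Rpl35 at chr2:39005112-39005171 on the minus strand and Rpl27a at chr7:109519155-109519214 on the plus strand. Rplp0 lies at chr5:115559427-115559486 on the plus strand, Rpl41 at chr10:128549149-128549208 on the minus strand and Rpl5 at chr5:107900488-107900547 on the plus strand.
Rpl7a: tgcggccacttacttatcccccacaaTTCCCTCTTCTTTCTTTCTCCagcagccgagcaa
Rpl35: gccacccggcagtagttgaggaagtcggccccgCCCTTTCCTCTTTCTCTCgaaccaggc
Rpl27a: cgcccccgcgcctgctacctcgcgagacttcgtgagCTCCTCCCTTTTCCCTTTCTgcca
Rplp0: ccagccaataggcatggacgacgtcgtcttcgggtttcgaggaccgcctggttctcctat
Rpl41: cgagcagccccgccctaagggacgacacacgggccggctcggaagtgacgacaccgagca
Rpl5: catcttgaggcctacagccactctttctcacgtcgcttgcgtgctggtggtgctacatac

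The run was 21 bases long in Rpl7a, 18 in Rpl35 and 20 in Rpl27a, while the annotated first base of Rplp0, Rpl41 and Rpl5 was no pyrimidine. RefSeq promoter windows (250 bases before to 50 after the start) were matched for 55 of the 75 members. A C followed by 4 bases that are each C or T, within 3 bases before to 8 after the start on the gene's strand, was found in 23 of them (41.8%), against 13.5% of 27025 genes with a window. With the C exactly at the annotated start, 13 members (23.6%) had it, against 3.01% of genes. ACTTCCGG, a core of ETS-family binding motifs, or its reverse complement CCGGAAGT was present in 11 members (20%), against 4.31% of genes. AAGATGGC, a core of the YY1 motif, or GCCATCTT was present in 5 members (9.09%), against 3.19% of genes. These are matches of letters in windows and not evidence of use.

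Ribosomal protein RNA was higher in fetal liver cells across the family. A gene was called where the authors' adjusted p-value, computed over all tested features, was under 0.05. In the authors' deposited table with its labels placed again, 61 of the 75 members were called higher in fetal liver and 14 were not called. Of all 35605 tested features, 4.12% were called higher and 0.129% lower. With labels placed again, no member was called lower by the authors' test, nor any placed member by limma. With labels as they stand, 60 members were called higher and 1 lower. Each placed member had a mean over both groups of 10 normalized reads or more, and in features above that level 8.86% were called higher and 0.224% lower. The gene labels of the table are displaced against its values and had to be placed again. This gave 60 members a single feature at a posterior of at least 0.95, often a different one from that printed next to its label. The other 15 have 2 or 3 candidate features each, all called higher, and are given no single value. They include Rpl7, Rpl10a, Rpl18, Rpl23a, Rpl26, Rpl29, Rpl39, Rplp1, Rps2, Rps3, Rps15, Rps19, Rps26 and Rpsa. Unless said otherwise, calls and values given here and below as in the authors' deposited table are those of the newly placed labels.

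Over these 60 genes the median log2 ratio of fetal liver to bone marrow was 3.31, beside 0.11 for all features at a mean of 10 or more. The ratio was above 1 in all 60 genes with the authors' scaling, and in 58 of 60 with libraries scaled to equal totals, under which Rpl12 and Rpl17 fell below 1. With the authors' scaling, the lower fetal liver library exceeded the higher bone marrow library in 59 of 60 genes, against 37.3% of 16501 features. The exception was Rpl5, and overlap was not counted with equal totals. With limma and Benjamini-Hochberg adjustment on reads recovered for each library, 54 of 60 were higher and 0 lower, against 19.2% and 2.87% of features. Leaving out the deeper or the shallower bone marrow library, limma called 51 and 53 of 60 higher, against 18.9% and 20.7% of features. Leaving out the deeper or the shallower fetal liver library, it called 51 and 48, against 14.6% and 13.7%. The authors' test at an adjusted p under 0.01 in the authors' deposited table called 39 of 60, against 2.71% of features, and their p-values adjusted over features at a mean of 10 or more called 48, against 11%. In bulk RNA of sorted cells, fewer cells of a type and less RNA per cell cannot be told apart.

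**Figure D1:**
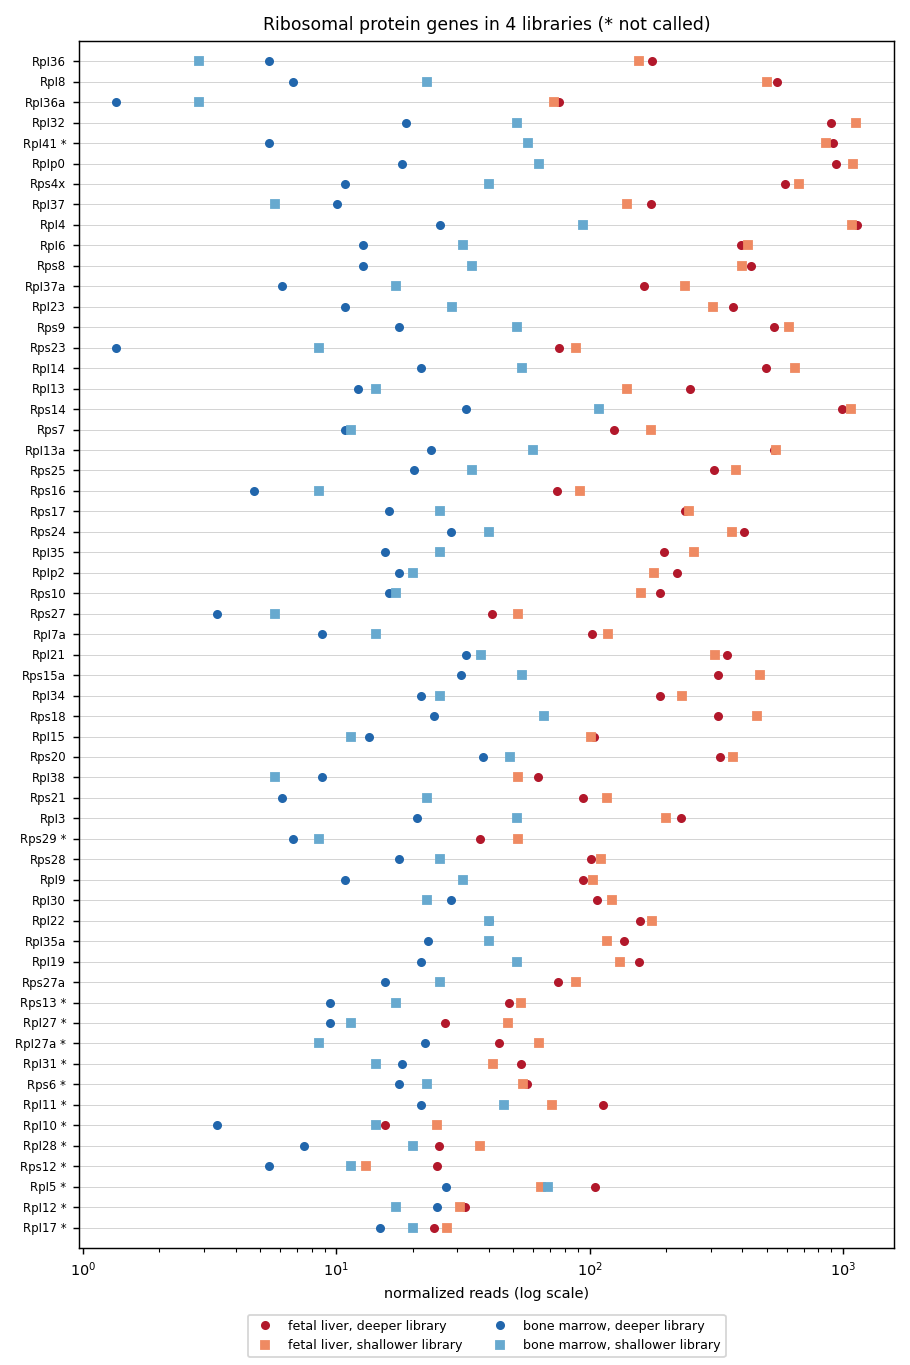
Normalized reads (log scale) of 58 of the placed genes in the deeper and shallower library of fetal liver (red, orange) and of bone marrow (dark and light blue), with genes ordered by ratio and genes not called marked by an asterisk. With the authors' scaling the groups overlap only in Rpl5 among the genes shown, and the gap narrows toward the bottom, where Rpl5, Rpl12 and Rpl17 had ratios under 2.

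Shares were taken of the recovered normalized reads of tested features with both group means up to 10000, so the most abundant features are left out. Of these reads, the 60 genes made up 1.74% in the deeper and 1.73% in the shallower fetal liver library. In bone marrow they made up 0.168% in the deeper and 0.296% in the shallower library. The 15 members without a single feature are not counted. The deeper library of each group is the one with more recovered reads, since the table does not tie libraries to replicate numbers. Recovered reads came to 2546089 and 868246 in the fetal liver libraries and to 858720 and 223361 in the bone marrow libraries. A member had 41 to 3006 reads (median 446) in the deeper and 11 to 943 (median 133) in the shallower fetal liver library. It had 2 to 59 reads (median 24) in the deeper and 1 to 38 (median 9) in the shallower bone marrow library. Counting error was larger in bone marrow, and 34 of the 60 genes had fewer than 10 reads in a bone marrow library.

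The bone marrow libraries differed from each other in this family. The shallower one lay above the deeper one in 52 of 60 genes (median log2 difference 0.83, range -1.38 to 3.40), beside 54.2% of all features and a median of 0.08. In fetal liver the shallower library lay above the deeper in 35 of 60 genes, with a median of 0.13. Leaving out 1 library moved the ratio by over 1.5 times in 29 of 60 genes, and the lowest ratio that any such omission gave was 1.24, for Rpl5. Without the shallower bone marrow library the median log2 ratio of the family was 3.72, and without the deeper one it was 3.16.

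**Figure D2:**
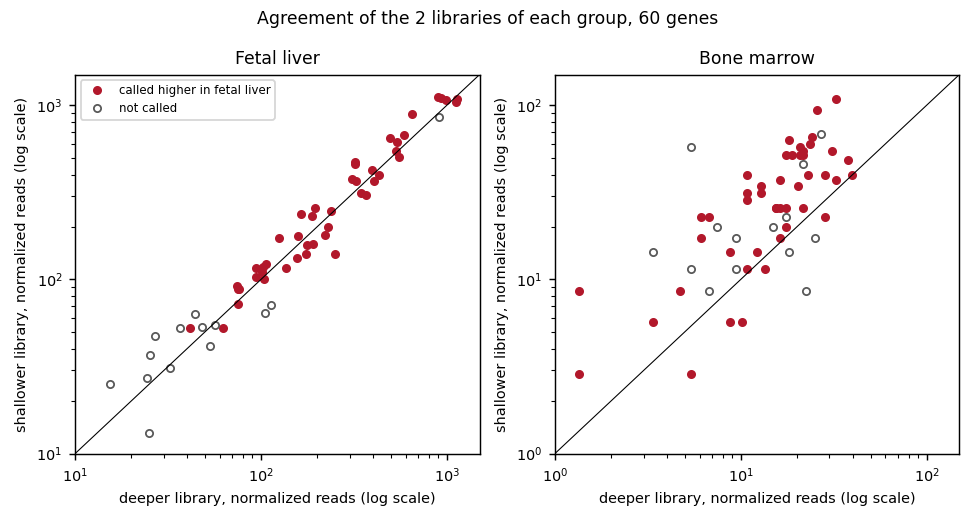
Normalized reads (log scales) of the 60 genes in the shallower against the deeper library of fetal liver (left) and bone marrow (right), with the line of equality; filled points were called higher in fetal liver. Fetal liver points follow the line (rank correlation 0.98), while bone marrow points scatter more (0.68) and 52 of 60 lie above it.

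In the small subunit, which binds messenger RNA and reads the codons, 26 of 30 genes were called higher in the authors' deposited table, and the median log2 ratio of 23 placed genes was 3.39. Rps14, on the platform near the exit of messenger RNA and linked in humans to anaemia of a myelodysplastic syndrome, had 992 and 1078 normalized reads in the fetal liver libraries (deeper, then shallower), against 32.4 and 109 in the bone marrow libraries. Its groups did not overlap, and its ratio in the authors' deposited table was 14.7 (adjusted p = 0.00253). Without the shallower bone marrow library its ratio was 31.9, and without the deeper one it was 9.53. All 6 genes of proteins lining the messenger RNA channel were called higher, 3 of them placed. Of 12 genes of the head, 10 were called higher and 8 were placed. Counts of subunits and regions here and below are to be read beside the wider shares called higher. These were 81.3% of all members, 4.12% of all tested features and 8.86% of features at a mean of 10 or more.

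The 4 small subunit genes not called were Rps6, Rps12, Rps13 and Rps29. With the authors' scaling, fetal liver still lay above bone marrow without overlap in each, as in 37.3% of features at a mean of 10 or more. Rps6, the substrate of S6 kinase downstream of mTOR, had 56.5 and 54.7 normalized reads in fetal liver, against 17.6 and 22.9 in bone marrow. Its ratio was 2.75 in the authors' deposited table (adjusted p = 0.351), while limma with Benjamini-Hochberg adjustment gave a log2 difference of 1.43 ± 0.43 (SE, adjusted p = 0.026). Rps12 had the lowest fetal liver mean of the 60 genes, with 25 and 13.1 in fetal liver, against 5.4 and 11.4 in bone marrow. These rest on 8 and 4 bone marrow reads, and neither the authors' test (adjusted p = 0.734 in the authors' deposited table) nor limma with Benjamini-Hochberg adjustment (adjusted p = 0.302) called it. Its ratio was 2.26 in the authors' deposited table. It was 3.52 when the shallower bone marrow library was omitted and 1.67 when the deeper one was. Rps13 had a ratio of 3.82 (adjusted p = 0.12) and Rps29, a small zinc-binding protein of the head, 5.81 (adjusted p = 0.0882) in the authors' deposited table. Both passed limma with Benjamini-Hochberg adjustment, at adjusted p = 0.0102 for Rps13 and adjusted p = 0.00537 for Rps29.

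In the large subunit, which forms peptide bonds, 35 of 45 genes were called higher in the authors' deposited table, and the median log2 ratio of 37 placed genes was 3.24. Rpl36 had the highest ratio of the placed genes, 40.5 in the authors' deposited table (adjusted p = 3.78e-09), with 177 and 157 normalized reads in fetal liver, against 5.4 and 2.86 in bone marrow. Its bone marrow level rests on 8 and 1 reads, and limma with Benjamini-Hochberg adjustment gave a log2 difference of 5.08 ± 0.47 (SE, adjusted p = 7.44e-06). Rpl8, which lies close to the peptidyl transferase centre, had 551 and 501 in fetal liver, against 6.76 and 22.9 in bone marrow. Its ratio was 35.5 in the authors' deposited table (adjusted p = 2.77e-06). Rpl36a had 75.4 and 72.5 in fetal liver, against 1.35 and 2.86 in bone marrow, where it had 3 reads in all. Its authors' ratio of 35.1 in the authors' deposited table (adjusted p = 5.91e-06) is therefore loosely fixed. Pooling the reads of each group by depth gave a ratio of 45.6, with a 95% interval of 15.4 to 222 that covers counting error only. Without the shallower bone marrow library the ratio was 77.8 for Rpl8 and 54.7 for Rpl36a. Without the deeper one it was 23 for Rpl8 and 25.9 for Rpl36a.

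Rpl32 combined a high level with a high ratio. It had 898 and 1121 normalized reads in fetal liver, against 18.9 and 51.5 in bone marrow, and a ratio of 28.7 in the authors' deposited table (adjusted p = 2.05e-06). The lowest fetal liver library was far above the highest bone marrow library. Rpl4, a protein of the tunnel through which the new peptide leaves, had the highest fetal liver mean of the placed genes. It had 1139 and 1088 in fetal liver, against 25.7 and 94.4 in bone marrow. Its ratio was 18.6 in the authors' deposited table (adjusted p = 0.00234). Without the shallower bone marrow library the ratios of Rpl32 and Rpl4 were 53.4 and 43.4, and without the deeper one they were 19.6 and 11.8. Of the 9 genes of the exit tunnel and its rim, 6 were placed and 7 were called higher (77.8%, beside 81.3% of all members).

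Rpl41, the shortest protein of the ribosome, combined a high ratio with no call. It had 909 and 856 normalized reads in fetal liver, against 5.4 and 57.2 in bone marrow, so that the bone marrow libraries differed by a larger factor than in any other placed gene. Its ratio was 28.2 in the authors' deposited table (adjusted p = 0.0964), and it was 163 without the shallower bone marrow library and 15.4 without the deeper one. limma with Benjamini-Hochberg adjustment gave a log2 difference of 5.52 ± 0.70 (SE, adjusted p = 5.9e-05).

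The P stalk, which recruits and activates elongation factors, had all 3 genes called higher, beside 81.3% of all members. Rplp0, which anchors the stalk to the ribosome, had 934 and 1099 normalized reads in fetal liver, against 18.2 and 62.9 in bone marrow (ratio 25 and adjusted p = 0.000364 in the authors' deposited table). Rplp2 had 221 and 180 in fetal liver, against 17.6 and 20 in bone marrow (ratio 10.6 and adjusted p = 3.21e-06 in the authors' deposited table). Without the shallower bone marrow library the ratio of Rplp0 was 55.7, and without the deeper one it was 16.2. Rplp1 was called at each of its candidate features and has no single value.

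The particle of Rpl5, Rpl11 and 5S ribosomal RNA, known to bind Mdm2 and so stabilize p53 when ribosome assembly is disturbed, had neither of its 2 protein genes called. Rpl5 had 105 and 64.2 normalized reads in fetal liver, against 27 and 68.6 in bone marrow, and the groups overlapped. Its ratio was 1.77 in the authors' deposited table (adjusted p = 0.661), and limma with Benjamini-Hochberg adjustment gave 0.91 ± 0.47 on the log2 scale (SE, adjusted p = 0.175). Rpl11 had 113 and 71.3 in fetal liver, against 21.6 and 45.7 in bone marrow, without overlap in the authors' scaling. Its ratio was 2.74 in the authors' deposited table (adjusted p = 0.144), and limma with Benjamini-Hochberg adjustment called it (adjusted p = 0.026). Omitting the shallower bone marrow library gave ratios of 3.14 for Rpl5 and 4.27 for Rpl11, and omitting the deeper one gave 1.24 and 2.02. Whether these genes differ from the rest of the family was not tested.

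The remaining large subunit genes not called were Rpl10, Rpl12, Rpl17, Rpl27, Rpl27a, Rpl28 and Rpl31. Rpl17, at the tunnel exit, had 24.3 and 27.3 normalized reads in fetal liver, against 14.9 and 20 in bone marrow, and the lowest ratio of the 60 genes, 1.48 in the authors' deposited table (adjusted p = 1). Rpl12, at the base of the stalk, had 32.2 and 30.9 in fetal liver, against 25 and 17.2 in bone marrow (ratio 1.5 and adjusted p = 1 in the authors' deposited table). In both genes the fetal liver libraries were the higher ones by small margins with the authors' scaling, and equal library totals put both ratios below 1. Rpl10, one of the last proteins to join the large subunit, had 15.5 and 25 in fetal liver, against 3.38 and 14.3 in bone marrow (ratio 2.29 and adjusted p = 0.748 in the authors' deposited table). Omitting the shallower bone marrow library gave a ratio of 6 for Rpl10, and omitting the deeper one gave 1.42. Rpl28 had a ratio of 2.27 in the authors' deposited table (adjusted p = 0.58). It was 4.19 when the shallower bone marrow library was omitted and 1.56 when the deeper one was. Rpl27, Rpl27a and Rpl31 had ratios of 3.56, 3.47 and 2.92 in the authors' deposited table (adjusted p = 0.444, 0.618 and 0.506). That of Rpl27a was 6.24 when the deeper bone marrow library was omitted and 2.4 when the shallower one was. limma with Benjamini-Hochberg adjustment called these last genes higher, at adjusted p = 0.0372 for Rpl27, 0.0176 for Rpl27a and 0.0293 for Rpl31. In all, limma called 8 of the 14 genes that the authors' test did not.

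Of the 19 members that cause Diamond-Blackfan anaemia in humans, 14 were called higher (73.7%), beside 81.3% of all members. Of all tested features 4.12% were called higher, and 8.86% at a mean of 10 or more. The median log2 ratio was 3.04 over 15 placed genes of this list, beside 3.31 over all placed members. The 5 not called were Rps29, Rpl5, Rpl11, Rpl27 and Rpl31, described above.

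Across the 60 placed genes, ratios spanned 1.48 to 40.5 and calls followed their size. The 15 members without a single feature are left out of this span and of the counts below. The candidate features of Rps2, with ratios of 55.9 to 146, all lie above it. In the authors' deposited table, 3 genes had a ratio under 2 and none of these was called, 11 lay between 2 and 4 with 2 called, and 9 between 4 and 8 with 8 called. All 20 genes between 8 and 16 were called, as were 13 of 14 between 16 and 32 and all 3 above 32. The genes not called had fetal liver means of 19 to 92.3 normalized reads, apart from Rpl41 with 883. The 2 genes called below a ratio of 4 were Rpl19 and Rps27a, each at 3.95 in the authors' deposited table. That of Rpl19 was 6.67 without the shallower bone marrow library and 2.8 without the deeper one. Over the 60 genes the log2 ratio had a Spearman correlation of 0.74 with the log2 fetal liver mean and 0.05 with the log2 bone marrow mean, a description in which the ratio shares each mean and the genes share the 4 libraries.

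Per kilobase of transcript, levels of the 60 placed genes in fetal liver ranged from 25.3 normalized reads per kb for Rpl10 to 2019.6 for Rpl41 (median 244). In bone marrow they ranged from 4.36 for Rpl36a to 118 for Rps14 (median 24.7). Members that were high per kb in one group tended to be high in the other (Spearman correlation 0.62 over 60 genes). This is a description in which both levels share the transcript length. Each length is that of 1 reference transcript, whose use in these cells was not tested.

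Many ribosomal protein genes have processed pseudogenes of near-identical sequence, and how the authors counted reads that match several places is not stated in the labels. The share of 50-base windows of the reference transcript found in no other gene ranged from 1.35% for Rps27 to 100%. Its median was 38.3%. In the 30 genes above this median, the median fetal liver level was 364 normalized reads per kb, against 33.3 in bone marrow, and 25 genes were called higher. In the 30 genes at or below it, the median was 156 in fetal liver, against 23.2 in bone marrow, and 21 were called. The median log2 ratio was 3.67 in the more unique and 2.80 in the less unique genes. Levels of genes with few unique windows are uncertain, and such genes were found among those not called (Rpl5 6.16%, Rpl10 7.87%, Rps12 9.89%) and among those called (Rps27 1.35%, Rpl35 4.91%, Rps10 7.57%). Other genes not called had many, such as Rps29 with 64.2% and Rpl27a with 64.1%. The part of shared sequence in the differences between members was not tested.

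**Figure D3:**
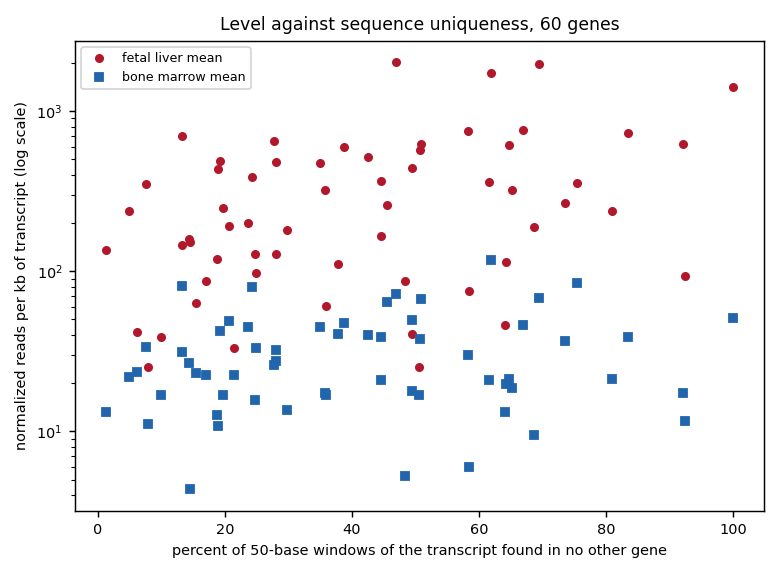
Mean normalized reads per kb of transcript (log scale) in fetal liver (red circles) and bone marrow (blue squares) against the percent of 50-base windows found in no other gene, for 60 genes. With the authors' scaling the fetal liver level lies above the bone marrow level for each gene (with equal library totals Rpl12 and Rpl17 reverse), and its rank correlation with the percent unique is 0.36 in fetal liver and 0.13 in bone marrow.

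Ratios were also set beside the C followed by 4 bases of C or T near the annotated start, a looser match than the capitals above. Nearly all members are known for the motif, so a start without a match does not show that it is missing. The split therefore cannot tell whether the motif goes with the ratio. Among placed members with a RefSeq window, the 22 with the match near the start had a median log2 ratio of 3.18 and 17 were called. The 23 without it had a median of 3.65 and 16 were called. Rpl7a (ratio 9.53), Rpl35 (ratio 11) and Rpl27a (ratio 3.47) carry long runs, while Rplp0 (25), Rpl41 (28.2) and Rpl5 (1.77) carry none at the annotated start, by ratios in the authors' deposited table.

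Other genes of ribosome assembly and translation were read from lists of names. Of 81 such genes in the table, 27 were called higher and 0 lower in the authors' deposited table, a share of 33.3%, against 4.12% of all tested features and 8.86% of features at a mean of 10 or more called higher. The counts of the single lists below are to be read beside the same shares. Of the translation elongation factors, 5 of 6 genes were called, with a median log2 ratio of 2.86 over 5 placed genes. Eef1a1, which delivers aminoacyl-tRNA, had 2520.3 and 2952 normalized reads in fetal liver, against 48.6 and 217 in bone marrow (ratio 20.6 and adjusted p = 0.011 in the authors' deposited table). Eef1b2, its exchange factor, had 370 and 344 in fetal liver, against 16.9 and 37.2 in bone marrow (ratio 13.2 and adjusted p = 3.87e-09 in the authors' deposited table). Eef1g, Eif5a and Eef1d had ratios of 7.25, 6.82 and 3.43 in the authors' deposited table (adjusted p = 4.09e-05, 0.000495 and 0.0496). Eef1d was thus called only just under the threshold of 0.05, and its ratio was 2.49 without the shallower fetal liver library and 4.38 without the deeper one. Without the shallower bone marrow library the ratios of Eef1a1, Eef1b2 and Eif5a were 56.3, 21.1 and 11.4. Without the deeper one they were 12.6, 9.6 and 4.87.

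Proteins made as fusions with ubiquitin-like sequence or bound to the ribosome had 5 of 7 genes called. Fau, which encodes a small subunit protein fused to a ubiquitin-like domain, had 54.6 and 55.9 normalized reads in fetal liver, against 4.73 and 8.58 in bone marrow (ratio 8.3 and adjusted p = 0.00685 in the authors' deposited table). Naca and Btf3, which together form the nascent polypeptide-associated complex, had ratios of 9.2 and 4.96, and Serbp1, which binds idle ribosomes, had 7.48, all called in the authors' deposited table. Omitting the shallower bone marrow library gave 9.8 for Btf3, and omitting the deeper one gave 3.32.

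Of 8 paralogs of ribosomal protein genes, 5 were called. Rpl22l1, the paralog of Rpl22, had 120 and 141 normalized reads in fetal liver, against 2.7 and 5.72 in bone marrow (ratio 31 and adjusted p = 3.04e-08 in the authors' deposited table). Rps27l, a paralog of Rps27 induced by p53, had 121 and 120 in fetal liver, against 4.05 and 8.58 in bone marrow (ratio 19.1 and adjusted p = 6.87e-07 in the authors' deposited table). Omitting the shallower bone marrow library gave ratios of 48.3 for Rpl22l1 and 29.8 for Rps27l, and omitting the deeper one gave 22.8 and 14.1. Rps4l, a paralog of Rps4x, had a ratio of 17 in the authors' deposited table (adjusted p = 0.00258). Rpl3l, known from muscle, Rpl10l, known from testis, and Rpl39l were not called, with means of 7.71, 1.33 and 3.06 normalized reads in fetal liver, against 14.8, 2.78 and 3.72 in bone marrow, in the authors' deposited table. Of 193 pseudogenes of the members, taken at any mean, 17 were called higher (8.81%), against 4.12% of all tested features. Over 103 placed ones with reads in both groups the median log2 ratio was 1.44. It was -0.19 over all tested features with reads in both groups. Rpl34-ps1 had 28.4 and 23.8 normalized reads in fetal liver and is listed at 0 in both bone marrow libraries.

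Of 31 nucleolar genes that process ribosomal RNA or assemble subunits, 8 were called higher, with a median log2 ratio of 1.49. Npm1, the abundant nucleolar chaperone nucleophosmin, had 1499 and 1630.2 normalized reads in fetal liver, against 52 and 126 in bone marrow (ratio 17.6 and adjusted p = 3.5e-06 in the authors' deposited table). Dkc1, the pseudouridine synthase dyskerin, and Nop58, a core protein of methylation guide particles, had ratios of 8.97 and 7.88, both called in the authors' deposited table. Omitting the shallower bone marrow library gave ratios of 30.1 for Npm1 and 5.39 for Dkc1. Omitting the deeper one gave 12.4 for Npm1 and 26.7 for Dkc1. Fbl, the methyltransferase fibrillarin of the same particles as Nop58, was not called, with 23.1 and 11.9 in fetal liver, against 19.6 and 22.9 in bone marrow. Bop1 and Gar1 were not called either, at ratios of 0.594 and 0.907 in the authors' deposited table. Omitting 1 library brought Bop1 to 0.999 (shallower bone marrow), Gar1 to 1.13 (deeper bone marrow) and Fbl to 1.09 (shallower fetal liver).

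RNA polymerase I and its factors had 1 of 11 genes called (9.09%, beside 8.86% of features at a mean of 10 or more) and a median log2 ratio of 0.14, near the 0.11 of those features. The called gene was Polr1d, a subunit shared with RNA polymerase III, with 94.4 and 80.9 normalized reads in fetal liver, against 14.2 and 25.7 in bone marrow (ratio 4.39 and adjusted p = 0.0136 in the authors' deposited table). Polr1a, the largest subunit, had 48.5 and 51.1 in fetal liver, against 77.7 and 62.9 in bone marrow, and was not called (ratio 0.709 and adjusted p = 1 in the authors' deposited table). Polr1e and Ubtf had ratios of 0.674 and 0.798 in the authors' deposited table and were not called, and both turned when the shallower bone marrow library was omitted, to 1.07 and 1.06.

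Of 18 regulators of ribosomal protein genes and their messages, 3 were called. Eif4ebp1, the mTOR-controlled repressor of cap-dependent translation, had 70.9 and 86.8 normalized reads in fetal liver, against 6.76 and 2.86 in bone marrow (ratio 16.4 and adjusted p = 0.000561 in the authors' deposited table). Pabpc1, the poly(A)-binding protein, and Trp53 had ratios of 4.59 and 3.79, both called in the authors' deposited table. Omitting the shallower bone marrow library gave ratios of 7.16 for Pabpc1 and 11.7 for Eif4ebp1. Omitting the deeper one gave 3.38 for Pabpc1 and 27.6 for Eif4ebp1. Mtor had 75 and 32.1 in fetal liver, against 115 and 97.2 in bone marrow. Its ratio of 0.505 was not called in the authors' deposited table (adjusted p = 0.921). It was 0.303 when the deeper fetal liver library was omitted and 0.708 when the shallower one was. Tbp and Rptor had ratios of 0.848 and 0.931 in the authors' deposited table and were not called, and Rptor was at 1.04 when the shallower fetal liver library was omitted.

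**Figure D4:**
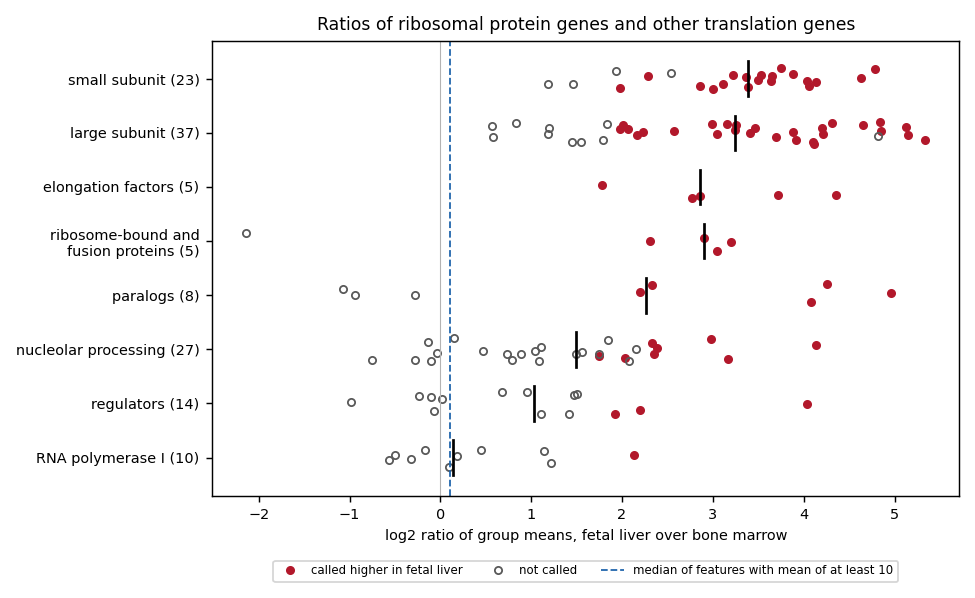
Log2 ratio of fetal liver to bone marrow for placed genes of each list (number in parentheses), with filled points called higher in fetal liver, open points not called, a bar at each list's median and a dashed line at 0.11, the median of features at a mean of 10 or more. Both subunits (3.39 and 3.24) lie far right of the line and the RNA polymerase I genes (0.14) lie at it; with libraries scaled to equal totals the features move left by a median of 0.71.

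Some markers of dividing cells, hepatoblasts, pericytes and stroma were called higher beside these genes. The erythroid, leukocyte, myeloid and endothelial lists had no gene called higher, which in lists of 4 to 10 genes is near the share of all features. Of all tested features 4.12% were called higher and 0.129% lower. At a mean of 10 or more the shares were 8.86% and 0.224%. Of 8 proliferation genes, 5 were called higher, and the placed ones summed to 1478 and 1765 normalized reads in fetal liver, against 319 and 280 in bone marrow. Of 10 hepatoblast genes, 4 were called higher, with sums of 742 and 741 in fetal liver, against 134 and 91.5 in bone marrow. Of 9 pericyte genes, 4 were called higher, with sums of 1270.2 and 1143 in fetal liver, against 227 and 289 in bone marrow. Of 7 stromal genes, 2 were called higher, with sums of 721 and 998 in fetal liver, against 293 and 286 in bone marrow. In each of these last 3 lists other genes were not called, and at least 1 placed gene had a ratio below 1. Of 10 neutrophil and myeloid genes 1 was called lower, with sums of 78.8 and 86.8 in fetal liver, against 474 and 160 in bone marrow. Erythroid genes had 0 of 10 called, with sums of 101 and 88 in fetal liver, against 85.1 and 91.5 in bone marrow. Only 5 erythroid genes were placed, and 4 of these had a ratio above 1 (median log2 ratio 1.59, range -0.73 to 3.19). Leukocyte genes had 0 of 4 called, with sums of 45.1 and 57.1 in fetal liver, against 84.5 and 48.6 in bone marrow. Endothelial genes had 1 of 8 called lower, with sums of 325 and 243 in fetal liver, against 299 and 229 in bone marrow. No placed marker was at 0 in both libraries of a group. The part of these cell types and of cell division in the ribosomal protein result was not tested.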

How the data were processed

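The ribosomal protein genes, the other lists and the tests were chosen with earlier results of these data known. Per the submitters' processing notes, the authors used GSNAP, HTSeq and DESeq with build mm9; roles and settings are not stated there. The authors deposited a table of 37996 features with the group means of normalized reads (a signal scaled per library by size factors, per the file headers), their ratio, and p-values and adjusted p-values. The authors' log2 column was not used. The table has 33465 labels at its top and 4531 features without one. Labels were placed again, in order, by a hidden Markov model using identifier order within tied p-values and a gene-structure score (LightGBM 4.6.0, 5 held-out folds, GENCODE M21). The score was trained to predict classes of the bone marrow and fetal liver means from gene structure, with other members among the training labels. Placement and the ratios of members are therefore not independent. A label was placed at a posterior of at least 0.95 (20676 labels, 61.8%; 60 of 75 members), and a gene was counted as called where at least that posterior lay on called features. Members had moved by 1 to 1392 features.

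Reads of single libraries were recovered as whole multiples of what 1 read is worth (0.379 and 1.19 normalized reads in fetal liver, 0.676 and 2.86 in bone marrow). Means up to 10000 had a single solution for 31919 of 31921 features in fetal liver and 34525 of 34525 in bone marrow. limma 3.58.1 (R 4.3.3) with a trend was run on log2(normalized reads + 1) over 16501 features, and was tested on simulated data. The placement of labels was tested by removing a random draw of labels. That test took the main placement as the truth, so it cannot show that this placement is right. Alternatives were other placements, thresholds, pseudocounts and scalings, and leaving out each library. Named genes are the 8 highest and 8 lowest ratios, all members not called, the 5 highest fetal liver means, the P stalk and 5S particle, and the 3 highest and lowest of other lists; Rpl7a, Rpl19, Rpl35, Rps10, Rps27, Rps27a and Rpl34-ps1 were added after their values were seen. Some genes that this rule names are not reported here.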

Additional observations from a re-analysis of the deposited data

How the results depend on the processing

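The direction of the family held under each alternative that gave a value. Counting placed members, 46 of 60 were called higher; the other placements, tests and thresholds gave 39 to 54 where the same 60 were used, 44 of 57 at a posterior of 0.99, 61 of 75 at the most probable features, 60 of 75 with labels as they stand, and 42 of 55 with the members given no structure score, an alternative added after seeing the data. Identifier order within tied values alone placed no member, which leaves 0 called, although 51 of 75 were called by the posterior lying on called features, a count also added after seeing the data. With labels as they stand, 1 member was called lower instead of 0. Leaving out each library in turn, limma called 48 to 53 members. The median log2 ratio of 3.31 became 2.77 with 10 added to both means and 2.60 with equal library totals, a scaling that shifts all features with a mean of at least 10 by a median of -0.71, to -0.60. Leave-one-out medians ran from 3.16 to 3.72. Of the 69 placed genes of assembly and translation, 26 were called, against 16 at an adjusted p under 0.01, 35 by limma (31 to 37 leaving out each library) and 0 by identifier order alone, which placed 2 of them. No paired analysis was possible because the groups share 1 replicate number and the table does not tie libraries to numbers. Bone marrow depth limits the ratios: 34 of 60 members had fewer than 10 reads in a library.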
